A study of Mus musculus with 8 samples.

Results

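C/EBPα binding around the iron genes Hamp, Hamp2 and Slc40a1 was read from ChIP-seq peak lists of mouse liver. All listed peaks inside 2 windows of build mm9 were taken, chr7:31660000-31780000 for Hamp and Hamp2 and chr1:45870000-46020000 for Slc40a1. The windows were set by coordinates and not by signal. They held 152 of the 446523 peaks in 8 lists, and these joined into 32 of 113353 sites, 16 in each window. A site is a stretch in which 200 bp peaks of any libraries overlap by at least 1 bp, and it is given here by its mm9 position.

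The series held 4 groups of 2 libraries, all from livers of mice aged 8 to 10 weeks that were kept on chow, fasted for 4 hours and given an adeno-associated virus (AAV) by intraperitoneal injection. Trib1_LSKO mice were Trib1 flox/flox animals given 1.5e11 gc of AAV_Cre, a vector coding for Cre recombinase, and Trib1_WT mice were Trib1 flox/flox animals given the same dose of the empty vector AAV_Null. AAV_Cebpa mice were C57B/6 wild-type animals given 1e12 gc of a vector coding for C/EBPα, and the AAV_Null group were such animals given 1e12 gc of the empty vector. The strain label is C57B/6 for every library, and the antibody was the same throughout. The labels name no promoter for Cre or C/EBPα in the vectors. Nothing states that the 2 libraries of a group were made from different animals, so spreads and p-values describe libraries only and may be technical. Whole liver was used, so the share of peaks that comes from hepatocytes was not measured.

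Hamp encodes hepcidin, the peptide hormone with which hepatocytes lower the iron content of plasma. Hepcidin binds ferroportin, the iron exporter encoded by Slc40a1, and causes it to be taken up and degraded. Ferroportin releases iron from macrophages, from enterocytes and from hepatocytes. Hamp transcription rises with iron, through BMP and SMAD signalling, and with inflammation, through IL-6 and STAT3. C/EBPα, a basic leucine zipper factor of hepatocytes, is known to activate the Hamp promoter, and loss of C/EBPα from mouse liver lowers Hamp mRNA. Mice carry a second hepcidin gene, Hamp2, whose product does not act on iron as hepcidin does. Peak lists hold no transcript levels, so neither expression of these genes nor the loss of Trib1 or gain of C/EBPα was measured.

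The promoters of the hepcidin pair are shown because their likeness bears on how tags can be placed at the locus and because they differ in a known control element. They are RefSeq sequences of build GRCm38.p6, from 250 bases before to 50 bases after the gene start, 5′ to 3′ on the minus strand, at chr7:30943980-30944279 for Hamp and chr7:30924132-30924431 for Hamp2. These positions are of another build than the peaks and cannot be set beside them. Capitals mark the BMP-responsive element GGCGCC of Hamp and the hexamer aligned with it in Hamp2.
Hamp: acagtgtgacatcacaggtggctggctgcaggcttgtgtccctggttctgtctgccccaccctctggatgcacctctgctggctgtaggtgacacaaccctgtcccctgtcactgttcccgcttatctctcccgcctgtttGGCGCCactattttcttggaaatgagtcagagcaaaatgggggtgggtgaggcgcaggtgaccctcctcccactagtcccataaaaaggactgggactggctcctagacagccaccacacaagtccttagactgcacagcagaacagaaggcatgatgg
Hamp2: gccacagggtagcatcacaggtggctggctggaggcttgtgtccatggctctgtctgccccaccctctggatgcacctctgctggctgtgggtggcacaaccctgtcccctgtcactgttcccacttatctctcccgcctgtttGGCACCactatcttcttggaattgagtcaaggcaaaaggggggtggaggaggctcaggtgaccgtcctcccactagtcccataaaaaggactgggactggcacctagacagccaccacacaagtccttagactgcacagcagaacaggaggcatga

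The promoters were identical at 276 of 297 aligned bases (92.9%), with 21 substitutions. One of these, G145A, fell inside the element, so Hamp2 lacked a match to GGCGCC (positions count from 1 at the 5′ end of the Hamp sequence, the Hamp base first). The element, searched as a palindrome, occurred in 11.9% of 32851 promoters of the same length. The C/EBP motif TTGCNNAA, searched on both strands, had no match in these letters of either promoter, while 10.8% of all promoters held it. The E-box CACGTG, also a palindrome, had no match in either, against 7.15% of all promoters. Of the 3 genes, Hamp and Hamp2 were matched in the promoter table and Slc40a1 was not.

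In the gene order of GRCm38, Hamp2 is preceded by Mag and followed by the pseudogene Usf2-ps1, then Hamp, Usf2 and Lsr. Sites above the Hamp position therefore lie on the side of Usf2 and Lsr. The nearest coding genes to Slc40a1 are Wdr75 and Dnah7b. No mm9 gene model was used here, so no site was assigned to a promoter, exon, intron or UTR. Hamp is placed at about 31727400 and Hamp2 about 20 kb below it, and which end of each gene this marks is not stated. Hamp is read from the minus strand and spans 1662 bp in GRCm38, so if 31727400 marks its lower end, the gene start would lie close to the +1.8 kb site, and that site cannot be called either distal or proximal to the start. Sites on chromosome 7 are named by the distance of their centre from the Hamp position, and sites on chromosome 1 by the distance from the lead site of that window, the one with the highest mean percentile over the 8 lists.

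The lists held 46348 to 80394 peaks, with relative depths of 1 to 2.27 and both AAV_Cebpa libraries deeper than both AAV_Null libraries. The weakest peak of a list held 7 to 12 sequence tags. Tag counts given here are not scaled for depth, so they show the counting error of a value and not a difference between libraries. The signal of a peak is the authors' own value. It is given as a percentile within its list, in which 100 is the strongest peak. A site missing from a list was not called there, which does not show that it was unbound.

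Both windows were dense in sites. The Hamp and Hamp2 window held 13.3 sites per 100 kb, against 3.92 over chromosome 7, and the Slc40a1 window 10.7, against 4.12 over chromosome 1. Of the 32 sites, 11 (34.4%) were called in all 8 libraries, 5 on the Hamp side and 6 in the Slc40a1 window, where 21.5% of all sites were. These 11 sites had median percentiles of 73.3 to 85.1 in the 8 lists, and all 24318 sites called in every list had medians of 71.1 to 78.4. Their peak midpoints lay within 13 to 48 bp of each other over the 8 libraries (median 27 bp, against 35 bp over all sites called in every list).

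The site nearest to the Hamp position, chr7:31727400-31727613, was called in AAV_Cebpa replicate 2 at percentile 46.5 and in AAV_Null replicate 1 at 50.4, and in no Trib1_LSKO or Trib1_WT library. The nearest site called in every list was chr7:31729072-31729314, 1.8 kb above the Hamp position and possibly close to the gene start, which was not placed in mm9. Its percentiles were 59.2 and 63.4 in Trib1_LSKO, 49.6 and 58.9 in Trib1_WT, 72.4 and 74.9 in AAV_Cebpa, and 84.6 and 77.1 in AAV_Null. Every library of the wild-type experiment was above every library of the floxed one, and AAV_Null was highest. Percentiles depend on the length of a list, and the share of all sites that separate the experiments in this way was not taken. Genotype and vector dose differ between the experiments and cannot be told apart. The tags behind these values were 39 and 49 in Trib1_LSKO, 30 and 63 in Trib1_WT, 75 and 115 in AAV_Cebpa, and 81 and 75 in AAV_Null. The 95% Poisson interval of the lowest of these counts was 20.2 to 42.8 tags, and intervals cover counting error only.

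The strongest site of the Hamp side was chr7:31735003-31735215, 7.7 kb above the Hamp position. It was the first of its window in all 8 libraries, at percentiles of 95.7 and 95.2 in Trib1_LSKO, 93.1 and 91.4 in Trib1_WT, 95.1 and 95.9 in AAV_Cebpa, and 92.9 and 90.7 in AAV_Null. Its midpoints varied by 13 bp. Between these, the +3.2 kb site (chr7:31730527-31730748) varied little, at percentiles of 75.6 and 81.1 in Trib1_LSKO, 73.3 and 74.2 in Trib1_WT, 75.4 and 80.2 in AAV_Cebpa, and 80.6 and 76.4 in AAV_Null. The signal there was 46% to 57.3% of that of the strongest site in the same library, and on that scale Trib1_LSKO overlapped Trib1_WT and AAV_Cebpa overlapped AAV_Null.

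Farther up, the +33.2 kb site (chr7:31760533-31760757) had percentiles of 83.2 and 91.1 in Trib1_LSKO, 82.3 and 90.1 in Trib1_WT, 75.4 and 92.9 in AAV_Cebpa, and 80.6 and 85.1 in AAV_Null, with no group apart from the others. The +46.3 kb site (chr7:31773613-31773829) had 88.0 and 79.9 in Trib1_LSKO, 85.2 and 72.3 in Trib1_WT, 78.4 and 76.1 in AAV_Cebpa, and 53.2 and 39.8 in AAV_Null. Both AAV_Null libraries were far below the 6 others at that site. It had 88 and 119 tags in AAV_Cebpa, against 31 and 28 in AAV_Null, but the AAV_Cebpa libraries were deeper. By the authors' signal it had 36.3 and 39.9 in AAV_Cebpa, against 23.6 and 18.3 in AAV_Null, a smaller contrast than by tags. Its neighbour at +45.1 kb (chr7:31772341-31772598) was called in 7 libraries, at 77.9 and 79.9 in Trib1_LSKO, 75.0 and 63.2 in Trib1_WT, 56.2 and 66.5 in AAV_Cebpa, and 51.8 in AAV_Null replicate 2.

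**Figure D1:**
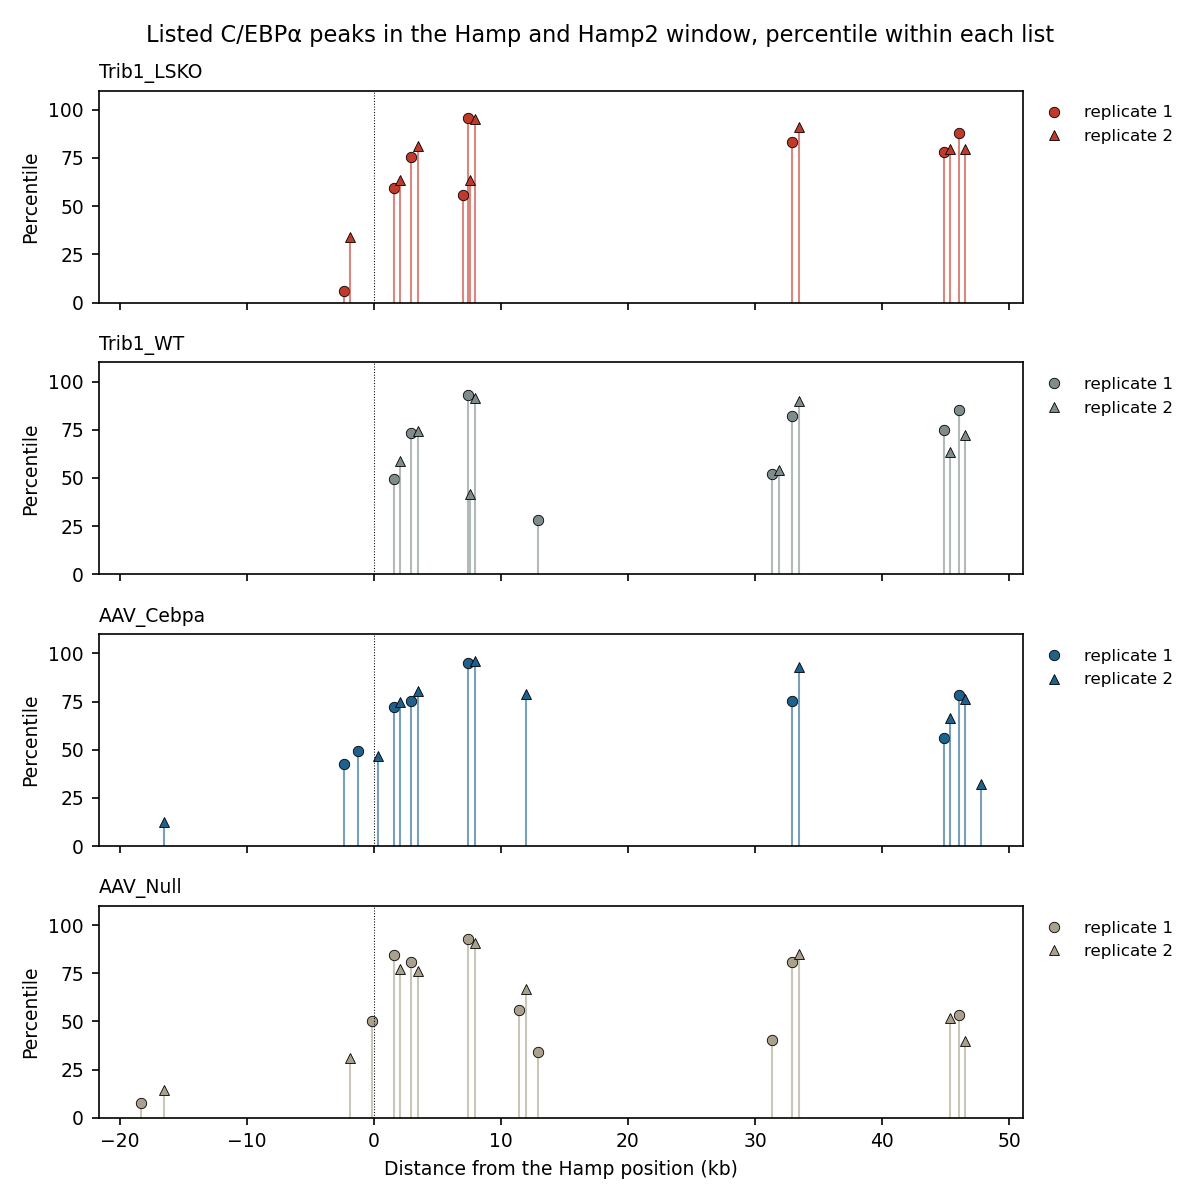
Listed C/EBPα peaks in the Hamp and Hamp2 window, by distance of the site centre from the Hamp position (kb, x axis; replicates are set slightly apart) and percentile within the list (y axis), with 1 panel for each group and 1 marker for each library. The +7.7 kb site stands at 90.7 to 95.9 in all 8 libraries, and the +46.3 kb site is lowest in AAV_Null, at 53.2 and 39.8.

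Few peaks were listed near Hamp2. The lowest 49.2 kb of the window held no peak in any library. The sites nearest to the place given for Hamp2 were the lowest in the window, chr7:31709200-31709399, listed in AAV_Null replicate 1 at percentile 7.5, and chr7:31710462-31710669, listed in AAV_Cebpa replicate 2 at 12.4 and in AAV_Null replicate 2 at 14.3. From there to the next site, at chr7:31725153-31725397, centres were 14.7 kb apart. How tags that match more than 1 place were treated is not given in the sources used here, and the part of the 92.9% promoter identity in these values was not tested.

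Other sites of the Hamp side were held by some groups. The +11.7 kb site (chr7:31739015-31739263) was called in AAV_Cebpa replicate 2 at percentile 79.0 and in AAV_Null at 55.9 and 66.9, and in none of the 4 libraries from floxed mice. It had 129 tags in AAV_Cebpa replicate 2 and was missing from AAV_Cebpa replicate 1, a library with 1.85 times the depth of the shallowest. The +7.3 kb site (chr7:31734549-31734762), 0.5 kb from the strongest one, showed the opposite distribution. It was called in Trib1_LSKO at 55.6 and 63.4 and in Trib1_WT replicate 2 at 41.7, and in no library of the wild-type mice. Each of these sites was called in 3 lists, as were 7.85% of all sites. The share of all sites split between the experiments in this way was not taken.

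In the Slc40a1 window the lead site, chr1:45977485-45977726, had percentiles of 85.7 and 89.8 in Trib1_LSKO, 93.4 and 91.1 in Trib1_WT, 87.4 and 95.1 in AAV_Cebpa, and 90.2 and 90.4 in AAV_Null. The -22.5 kb site (chr1:45955006-45955226) was nearly as strong, at 88.6 and 92.2 in Trib1_LSKO, 90.2 and 87.7 in Trib1_WT, 83.0 and 85.5 in AAV_Cebpa, and 93.6 and 95.0 in AAV_Null. Their order differed between groups. The highest signal of the window was at the -22.5 kb site in both Trib1_LSKO libraries and at the lead site in both Trib1_WT libraries. It was at the lead site in both AAV_Cebpa libraries and at the -22.5 kb site in both AAV_Null libraries. The 95% Poisson intervals of the tag counts of these sites overlapped in every library but AAV_Cebpa replicate 2. There the -22.5 kb site had 158 tags (134 to 185) and the lead site 225 (197 to 256). In Trib1_LSKO replicate 1, for example, the counts were 90 (72.4 to 111) and 81 (64.3 to 101). How often the order of strong neighbouring sites separates groups elsewhere was not taken.

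The -15.3 kb site (chr1:45962182-45962429) varied within groups, with percentiles of 84.3 and 91.1 in Trib1_LSKO, 67.9 and 85.4 in Trib1_WT, 82.0 and 84.9 in AAV_Cebpa, and 54.5 and 86.4 in AAV_Null. The +3.9 kb site (chr1:45981416-45981654) had 67.8 and 77.2 in Trib1_LSKO, 67.9 and 79.6 in Trib1_WT, 84.3 and 81.2 in AAV_Cebpa, and 68.3 and 87.4 in AAV_Null, and the AAV_Null range overlapped that of each other group. The -51.8 kb site (chr1:45925665-45925891) had 79.9 and 66.5 in Trib1_LSKO, 40.2 and 57.5 in Trib1_WT, 59.4 and 47.9 in AAV_Cebpa, and 71.7 and 55.0 in AAV_Null. Both Trib1_LSKO libraries were above both Trib1_WT libraries there, while AAV_Cebpa and AAV_Null overlapped. The -60.2 kb site (chr1:45917292-45917532) had 50.2 and 47.7 in Trib1_LSKO, 42.0 and 45.5 in Trib1_WT, 43.7 and 46.5 in AAV_Cebpa, and 51.9 and 55.0 in AAV_Null. As a share of the lead site in the same library it had 39.5% and 31.4% in Trib1_LSKO, against 20.1% and 27.5% in Trib1_WT, without overlap, while AAV_Cebpa and AAV_Null overlapped.

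Sites of the Slc40a1 window that were called in only some libraries lay mostly in its lower part. The -47.8 kb site (chr1:45929654-45929873) was called in Trib1_LSKO at 43.8 and 26.9, in Trib1_WT at 73.3 and 59.6 and in AAV_Null replicate 2 at 45.6, and in neither AAV_Cebpa library. The -43.7 kb site (chr1:45933788-45934028) had 53.0 and 46.4 in Trib1_LSKO, 54.7 and 55.4 in Trib1_WT, 16.4 in AAV_Cebpa replicate 2, and 49.0 and 58.7 in AAV_Null, and was missing from AAV_Cebpa replicate 1. These neighbours, 4.1 kb apart, were thus weak or not listed in AAV_Cebpa. The -88.3 kb site (chr1:45889191-45889423) had 50.2 and 60.9 in Trib1_LSKO, 30.9 in Trib1_WT replicate 2, 37.4 and 36.7 in AAV_Cebpa, and 18.4 and 33.1 in AAV_Null, highest in Trib1_LSKO, and was missing from Trib1_WT replicate 1. The -65.2 kb site (chr1:45912178-45912572) had 48.6 and 37.5 in Trib1_LSKO, 25.8 and 10.4 in Trib1_WT, 42.5 and 34.9 in AAV_Cebpa, and 18.9 in AAV_Null replicate 2, and was missing from AAV_Null replicate 1. Its midpoints spread over 195 bp, against 13 to 48 bp at the sites called in every list.

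**Figure D2:**
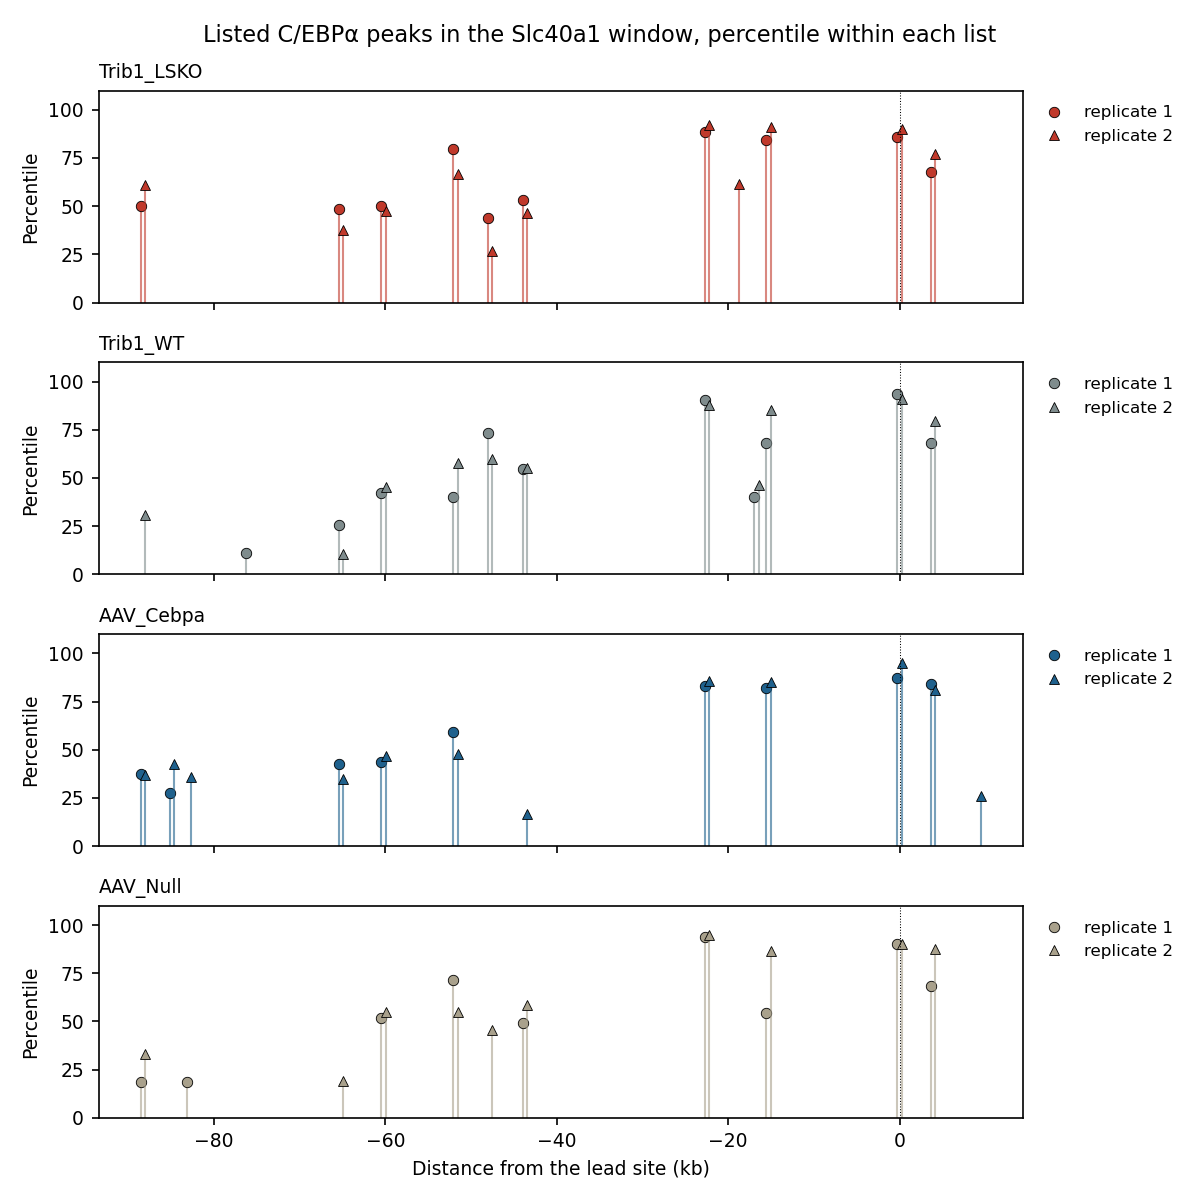
Listed C/EBPα peaks in the Slc40a1 window, by distance of the site centre from the lead site (kb, x axis; replicates are set slightly apart) and percentile within the list (y axis), with 1 panel for each group and 1 marker for each library. The -22.5 kb site and the lead site stand above 80 in every library, and no AAV_Cebpa marker is present at -47.8 kb.

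Of the 32 sites, 22 were called in both libraries of at least 1 group. The other 10, with 6 of them in 1 list and 4 in 2 lists, had percentiles of 7.5 to 61.7 (median 30.0), and the highest was the -19.0 kb site of the Slc40a1 window, in Trib1_LSKO replicate 2.

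The first comparison addressed C/EBPα binding after Cre was delivered to livers with floxed Trib1, the gene of the pseudokinase Tribbles-1. The number of peaks at the loci hardly differed, with 18 and 19 in Trib1_LSKO and 19 in each Trib1_WT library, a mean of 18.5 ± 0.71 against 19 ± 0 (SD, n = 2 each; p = 1 by a two-sided exact permutation test, which cannot go below 0.333 with 2 against 2 libraries). Of 23 sites listed in this experiment, 1 (4.35%) was gained in Trib1_LSKO, meaning a peak in both Trib1_LSKO libraries and neither Trib1_WT library, and 2 (8.7%) were lost. Over all sites of the experiment 4.74% were gained and 4.86% lost, so the gained share was close to the background, and the lost share rested on 2 sites. Relative depth was 1.18 and 1.28 in Trib1_LSKO, against 1.14 and 1.93 in Trib1_WT, and its part in these counts was not tested.

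The gained site lay 2.1 kb below the Hamp position, at chr7:31725153-31725397, with percentiles of 6.2 and 34.1 in Trib1_LSKO from 12 and 25 tags. It was also listed in AAV_Cebpa replicate 1, at 42.5, and AAV_Null replicate 2, at 31.3. The lost sites were not listed in Trib1_LSKO. In Trib1_WT, the +31.6 kb site of the Hamp side (chr7:31758907-31759167) had percentiles of 52.2 and 53.9, from 32 and 56 tags, and the -16.7 kb site of the Slc40a1 window (chr1:45960815-45961074) had 40.2 and 46.4, from 24 and 47 tags. The +31.6 kb site was also listed in AAV_Null replicate 1, at 40.4, and the -16.7 kb site in no other library. Each lost site had a neighbour called in all 8 libraries, at 1.6 kb for the +31.6 kb site and at 1.4 kb for the -16.7 kb site. With 1 library of a group left, sites need fewer lists to count, and gained sites then numbered 2 without Trib1_LSKO replicate 1 and 3 without Trib1_WT replicate 2, and lost sites 4 without Trib1_WT replicate 2.

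Because percentiles depend on the length of a list, groups were compared by rank among the sites called in all 4 libraries of an experiment. In the first experiment 15 of the loci's sites were among these 34866. In 8 of the 15 (53.3%) both Trib1_LSKO libraries ranked above both Trib1_WT libraries, against 22.8% of all common sites, and in 2 (13.3%) both ranked below, against 32% of all. On the Hamp side 4 of 6 sites ranked higher without overlap and none lower, and in the Slc40a1 window 4 of 9 ranked higher and 2 lower. The Hamp count depended on the scale. As a share of the signal of the +7.7 kb site in the same library, a scale chosen after the data had been seen, only the +45.1 kb site was higher without overlap, by 7.72 points, while the +1.8 kb site differed by 2.11 points and the +3.2 kb site by 1.34 points with overlapping groups, and the +7.7 kb site has no value of its own. The median difference was 7.4 percentile points over the 15 sites and -1.7 over all common sites. Sites of 1 window share their surroundings and are not replicates. The exact two-sided permutation p of each of these 10 sites was 0.333, the smallest possible.

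The differences at Hamp were small. The +1.8 kb site ranked at 45.3 and 47.6 in Trib1_LSKO, against 30.8 and 41.0 in Trib1_WT, a mean of 46.5 ± 1.6 against 35.9 ± 7.2 (SD, n = 2 each). The difference was 10.5 points, and 5.4 without Trib1_WT replicate 1. A larger absolute difference was seen at 36.4% of all common sites. The +7.7 kb site ranked at 93.9 and 92.7 in Trib1_LSKO, against 89.6 and 86.7 in Trib1_WT, a difference of 5.2 points. The +3.2 kb site ranked at 66.0 and 71.8 in Trib1_LSKO, against 60.2 and 60.7 in Trib1_WT, a difference of 8.5 points that was 5.6 without Trib1_LSKO replicate 2. The fourth non-overlapping site of the Hamp side, at +45.1 kb, ranked at 69.2 and 70.1 in Trib1_LSKO, against 62.6 and 46.2 in Trib1_WT. Its difference of 15.3 points was 23.5 without Trib1_WT replicate 1 and 7.1 without Trib1_WT replicate 2, so it depended on which control library was used.

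The largest differences among the 15 sites were at neighbouring sites of the Slc40a1 window and had opposite signs. The -51.8 kb site ranked at 71.9 and 51.5 in Trib1_LSKO, against 21.4 and 39.4 in Trib1_WT, a difference of 31.3 points. The -47.8 kb site, 4.0 kb away, ranked at 28.5 and 10.9 in Trib1_LSKO, against 60.2 and 41.8 in Trib1_WT, a difference of -31.3 points. Groups did not overlap at either site, and 4.54% and 4.53% of all common sites had a larger absolute difference. Replicates of 1 group differed by up to 20.4 points at these sites. The other sites with higher ranks were at -65.2 kb, -15.3 kb and -60.2 kb. The differences were 20.4 points at -65.2 kb (13.4 without Trib1_LSKO replicate 1) and 7.4 points at -60.2 kb (4.6 without Trib1_LSKO replicate 1). At -15.3 kb the difference was 17.1 points (4.8 without Trib1_WT replicate 1 and 29.5 without Trib1_WT replicate 2). With peaks joined in windows of 100 bp, the -65.2 kb site, whose midpoints were widely spread, gave no value. Sites ranked higher at both loci then numbered 7. The lead site ranked lower, at 79.9 and 84.6 in Trib1_LSKO, against 90.0 and 86.2 in Trib1_WT, a difference of -5.9 points that was -3.5 without Trib1_LSKO replicate 1.

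The second comparison addressed C/EBPα binding after C/EBPα was supplied by a vector. The AAV_Cebpa lists were longer as a whole, and the loci held 17 and 22 peaks in AAV_Cebpa and 19 in each AAV_Null library, a mean of 19.5 ± 3.5 against 19 ± 0 (SD, n = 2 each; p = 1 by the exact permutation test). The difference of 0.5 peaks was -2.0 without AAV_Cebpa replicate 2 and 3.0 without AAV_Cebpa replicate 1. As a share of the list this was 2.85 and 2.74 per 10000 peaks in AAV_Cebpa, against 4.1 and 3.87 in AAV_Null, with no overlap. The lists held 59564 and 80394 peaks in AAV_Cebpa, against 46348 and 49052 in AAV_Null. A longer list lowers this share wherever the count stays the same. The same share at other loci was not taken, so this separation has no background. Of 28 sites listed in this experiment, 1 (3.57%) was gained in AAV_Cebpa, where 22.1% of all sites were, and none was lost, where 6.03% of all were. Relative depth was 1.85 and 2.27 in AAV_Cebpa, against 1 and 1.17 in AAV_Null, and its part in these counts was not tested.

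The gained site was the -84.9 kb site of the Slc40a1 window, chr1:45892623-45892833. It had percentiles of 27.3 and 42.7 in AAV_Cebpa, from 27 and 51 tags, and was listed in none of the other 6 libraries. Gained sites numbered 3 without AAV_Cebpa replicate 1, 2 without AAV_Cebpa replicate 2 and 3 without AAV_Null replicate 2. Lost sites numbered 2 without AAV_Cebpa replicate 2, 1 without AAV_Null replicate 1 and 3 without AAV_Null replicate 2.

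Among the 27702 sites common to the 4 libraries, 12 lay at the loci. Both AAV_Cebpa libraries ranked above both AAV_Null libraries at 2 of the 12 (16.7%, against 30.6% of all common sites) and below them at 4 (33.3%, against 40.3%), so neither share exceeded the background. Higher sites numbered 4 without AAV_Cebpa replicate 1 and 5 without AAV_Null replicate 2. Groups overlap less readily with 1 library left in a group, and the share of all common sites was not taken there. The median difference was -1.6 points over the 12 sites and -2.1 over all.

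At Hamp the +1.8 kb site ranked at 53.8 and 48.7 in AAV_Cebpa, against 75.1 and 62.2 in AAV_Null. The means were 51.2 ± 3.6 in AAV_Cebpa and 68.6 ± 9.1 in AAV_Null (SD, n = 2 each). By the exact permutation test p was 0.333, its floor, here and at the other sites without overlap. The difference, -17.4 points, was -10.9 without AAV_Null replicate 1, and 37.6% of all common sites had a larger absolute difference. The +46.3 kb site ranked at 62.2 and 50.6 in AAV_Cebpa, against 34.6 and 21.5 in AAV_Null, a difference of 28.4 points that 19.2% of common sites exceeded. In the Slc40a1 window the -22.5 kb site ranked at 69.0 and 67.2 in AAV_Cebpa, against 89.5 and 91.3 in AAV_Null, a difference of -22.3 points that 28.3% of common sites exceeded. Its groups were far apart relative to the spread within them, with an SD of 1.2 in AAV_Cebpa and 1.3 in AAV_Null. The -60.2 kb site ranked at 22.1 and 15.7 in AAV_Cebpa, against 33.2 and 35.2 in AAV_Null, a difference of -15.3 points. That separation was lost as a share of the lead site, at 33.7% and 24.9% in AAV_Cebpa, against 28.5% and 31% in AAV_Null, a difference of -0.459 points. The smaller non-overlapping differences of the Hamp side were -7.4 points at +3.2 kb (-3.4 without AAV_Null replicate 1 and -11.3 without AAV_Null replicate 2, and with overlapping groups as a share of the +7.7 kb site) and 3.7 points at +7.7 kb (5.9 without AAV_Null replicate 1 and 1.5 without AAV_Null replicate 2).

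**Figure D3:**
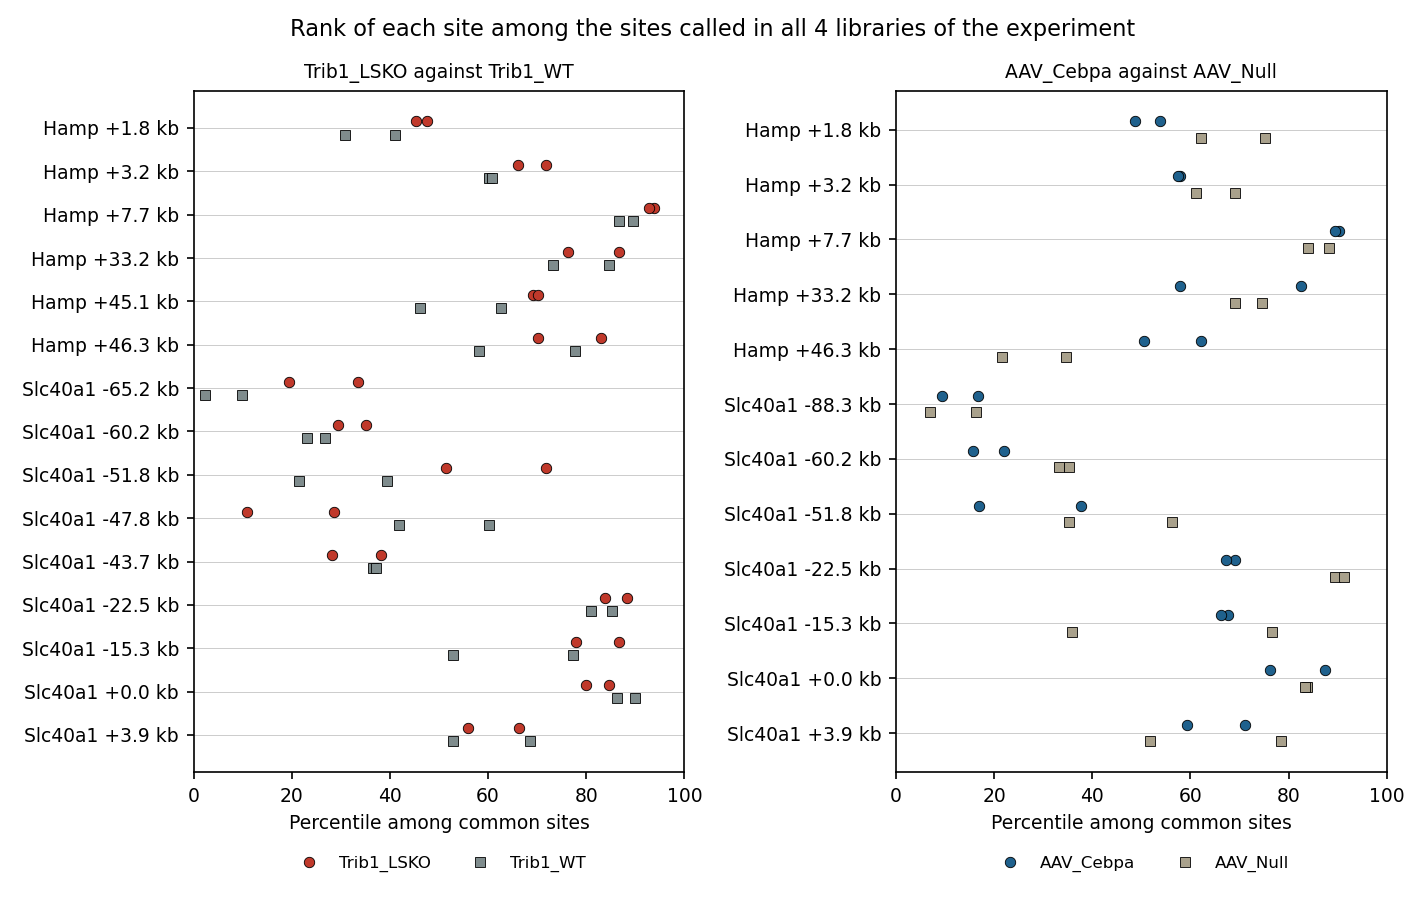
Rank of each site of the loci among the sites called in all 4 libraries of an experiment (x axis, percentile), with circles for Trib1_LSKO or AAV_Cebpa and squares for Trib1_WT or AAV_Null and 1 marker for each library; rows give the distance from the Hamp position or from the lead site of the Slc40a1 window. Trib1_LSKO lies above Trib1_WT without overlap in 8 of 15 rows, and AAV_Cebpa lies below AAV_Null without overlap in 4 of 12.

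Signal was also read as a share of the lead site in the same library, which does not depend on the length of a list. For the -22.5 kb site these shares give the size of the difference in order already described and are no further support for it. They were 111% and 111% in Trib1_LSKO, against 84.7% and 87.5% in Trib1_WT, a difference of 25.1 points, and 87.2% and 70.3% in AAV_Cebpa, against 121% and 128% in AAV_Null, a difference of -45.6 points. By rank among common sites, groups overlapped at the -22.5 kb site in the first experiment, at 83.9 and 88.3 in Trib1_LSKO and 85.2 and 81.0 in Trib1_WT. The rank difference there was 3.0 points, and that of the lead site was -5.9 points. As a share of the lead site, the -15.3 kb site differed more in the first experiment than in the second. It had 95% and 106% in Trib1_LSKO, against 38.7% and 80.4% in Trib1_WT, a difference of 40.8 points without overlap. In the second experiment it had 84.5% and 69% in AAV_Cebpa, against 30.4% and 83.7% in AAV_Null, a difference of 19.7 points with overlapping groups. The sign of that difference rested on AAV_Null replicate 1. By rank among common sites the difference was 10.6 points, and -9.7 without AAV_Null replicate 1. The lead site held 81 and 108 tags in Trib1_LSKO, 124 and 168 in Trib1_WT, 116 and 225 in AAV_Cebpa, and 105 and 129 in AAV_Null. These tags are not scaled for depth. The authors' signal at the lead site was 52.1 and 64.3 in Trib1_LSKO and 83.0 and 66.3 in Trib1_WT. It was 47.8 and 75.4 in AAV_Cebpa and 79.9 and 84.2 in AAV_Null.

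On the Hamp side the +1.8 kb site had 30.9% and 35% of the signal of the +7.7 kb site in Trib1_LSKO, against 24.6% and 37.1% in Trib1_WT, so these groups overlapped. It had 47.1% and 49.2% in AAV_Cebpa, against 66.4% and 57.2% in AAV_Null, without overlap. The +46.3 kb site had 69.8% and 55% in Trib1_LSKO, against 69.7% and 52.3% in Trib1_WT, and 55.3% and 50.9% in AAV_Cebpa, against 25.4% and 21.4% in AAV_Null.

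**Figure D4:**
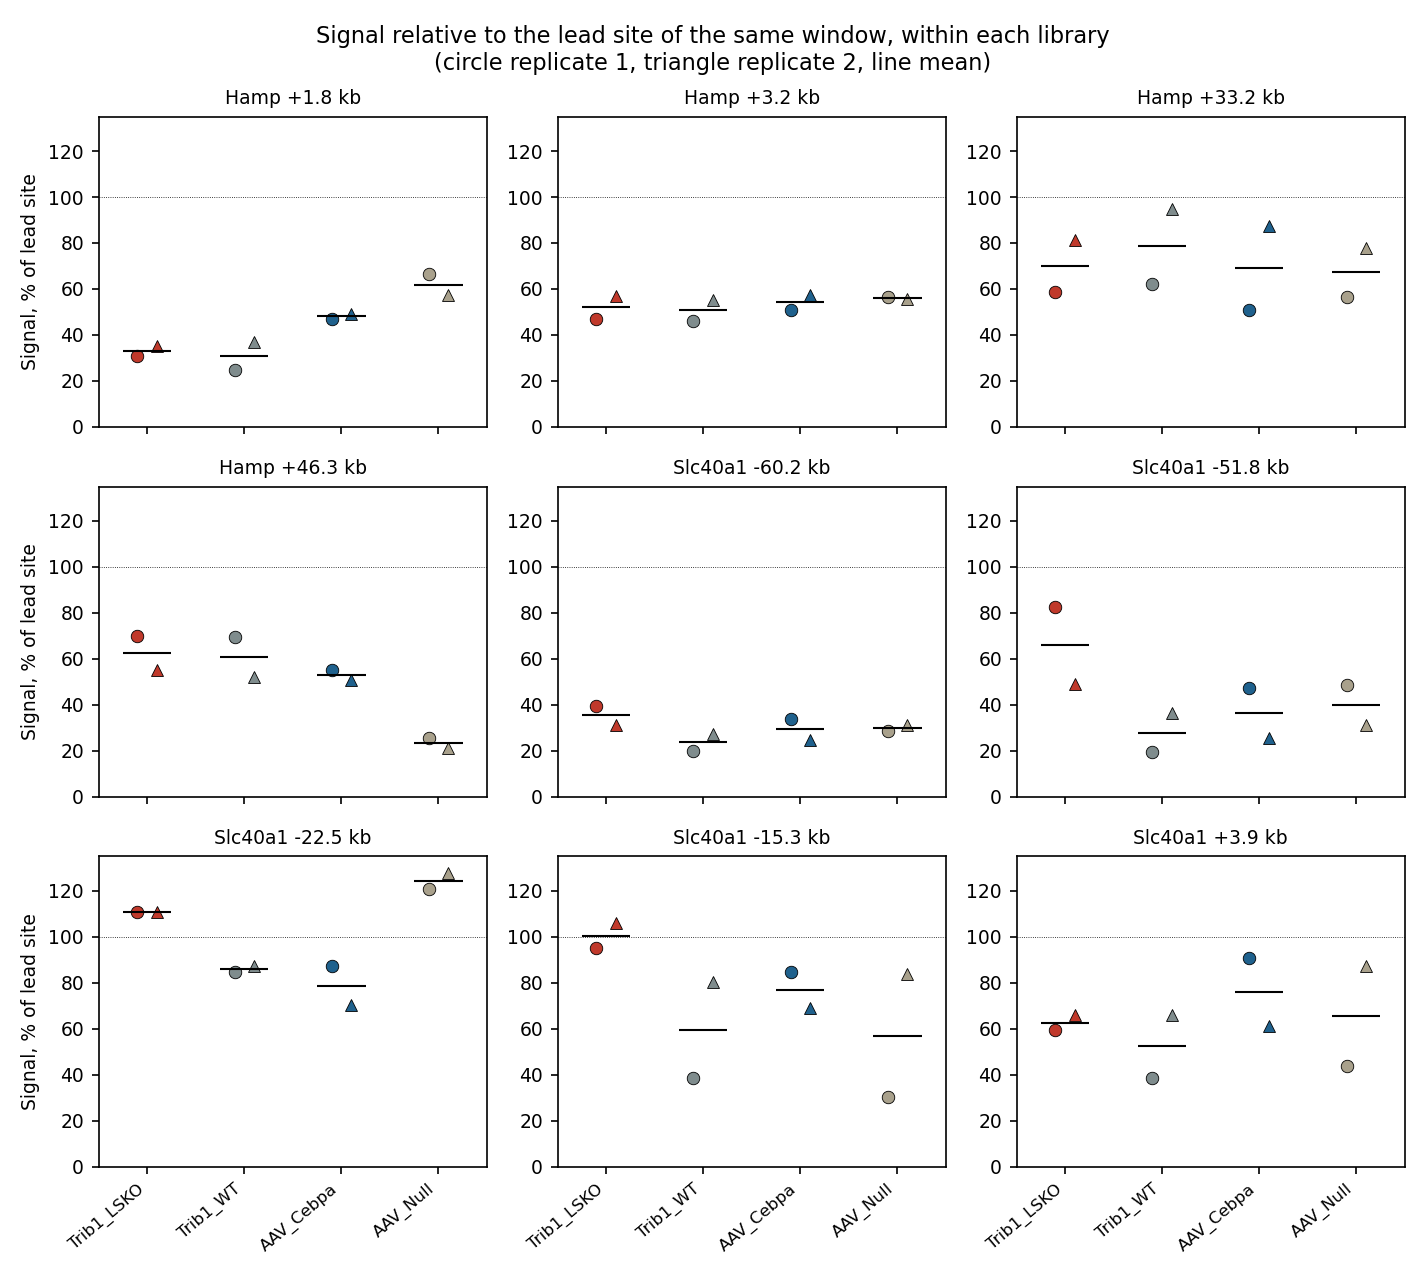
Signal of each other site called in all 8 libraries as a percentage of the lead site of its window in the same library (y axis), by group (x axis), with circles for replicate 1, triangles for replicate 2 and a line at the mean. For the -22.5 kb site of the Slc40a1 window, both Trib1_LSKO and both AAV_Null libraries lie above 100%. Both Trib1_WT and both AAV_Cebpa libraries lie below it. The 95% Poisson intervals of the tag counts of that site and its lead site overlap in every library but AAV_Cebpa replicate 2. The lead site of the Hamp side is the +7.7 kb site.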

How the data were processed

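Per the labels' protocols, frozen liver was crosslinked, nuclei were isolated and sonicated, and C/EBPα ChIP libraries were sequenced. The authors deposited 1 peak list per library with a signal value per peak. The submitters' processing notes name Bowtie, HOMER and build mm9. Versions, input library, peak threshold and the handling of duplicate or multiply matching tags were not given in the sources used here. The signal values were whole multiples of 1 step per library (tolerance 0.051), and 1 step was taken as 1 tag, its inverse as relative depth.

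From these lists, 200 bp windows at the peak midpoints of all 8 libraries were merged into sites wherever they shared 1 bp (Python 3.11.15, numpy 2.4.6, pandas 2.3.3, scipy 1.17.1). The code was run on simulated lists with sites far apart and midpoints close together. Near neighbours and sites with widely spread midpoints were therefore not tested. Percentiles rank peaks within a list, and values are the authors'. Groups of 2 libraries were compared within each experiment by exact two-sided permutation tests of rank among common sites. Promoters were aligned with Biopython 1.88. Every site is counted, and values per library are given for sites called in both libraries of at least 1 group and for the site nearest to Hamp. The loci, sites and tests were chosen with earlier results of these data known. A list of other iron genes could not be read, since no mm9 annotation was used here.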

Additional observations from a re-analysis of the deposited data

How the results depend on the processing

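Of 96 recomputed counts and differences that summarise a comparison, 71 were labelled the same, 21 moved and 4 changed sign. Of 292 recomputed values of single sites or windows, 261 were labelled the same, 5 moved and 26 changed sign. The label means a ratio within 1.5 for a count, and for a difference only an unchanged sign, whatever its size. The Trib1_LSKO rank difference at 45962182, for example, was 17.1 and became 4.8 without Trib1_WT replicate 1, and was labelled the same. The peak difference of Trib1_LSKO (-0.5) was 1.5 when the strongest 50% of peaks were kept and 0.0 at equal list length, and that of AAV_Cebpa (0.5) became -2.0 and -3.0. Gained sites of Trib1_LSKO became 2 and 0 under these settings. Gained sites of AAV_Cebpa became 0 with the strongest 50%, and lost sites 1 under either setting. These settings hold fewer peaks by construction. Lower sites of Trib1_LSKO numbered 1 among sites called in all 8 libraries, where fewer sites are ranked, and 1 as a share of the lead site, a scale added after the data had been seen. Lower sites of AAV_Cebpa then numbered 2. The cause was not tested.

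Leaving out 1 library gave 1 to 3 gained and 2 to 4 lost sites in Trib1_LSKO, 1 to 3 gained and 0 to 3 lost in AAV_Cebpa, 10 to 10 higher and 2 to 3 lower ranks in Trib1_LSKO, 2 to 5 higher and 5 to 6 lower in AAV_Cebpa, and peak differences of -1.0 to 0.0 in Trib1_LSKO and -2.0 to 3.0 in AAV_Cebpa. With 1 library left in a group, groups overlap less readily, so counts of higher and lower ranks tend to rise by construction. The shares over all common sites were not taken at these settings, so these counts have no background.

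Signs of small differences also changed. In the Slc40a1 window, the peak difference of Trib1_LSKO was 1.0 with the strongest 50% and 0.5 at equal length, and that of AAV_Cebpa -2.0, -1.5 and, leaving out 1 library, -0.5 to 2.5. In the Hamp window, that of AAV_Cebpa was -1.5 to 0.5 leaving out 1 library. For Trib1_LSKO ranks, leaving out 1 library gave -8.7 to 1.4 at 45933788, -7.5 to 8.3 at 45981416, -3.2 to 8.2 at 31760533 and -1.1 to 18.5 at 31773613. The share of the lead site gave 5.4 at 45933788 and -8.5 at 31760533, and the full-list percentile -1.2 at 45981416. For AAV_Cebpa, leaving out 1 library gave -3.2 to 6.1 at 45889191, -9.7 to 30.9 at 45962182, -7.3 to 4.0 at 45977485, -13.2 to 13.4 at 45981416 and -13.9 to 10.9 at 31760533. The full-list percentile gave 1.0 at 45977485 and 1.3 at 31760533, and the share of the lead site 2.0 at 31760533. By rank among common sites with every library kept, groups overlapped at each of these sites. By full-list percentile they did not overlap at 45933788 for Trib1_LSKO or at 45889191 for AAV_Cebpa. As a share of the lead site they did not overlap at 45889191 for AAV_Cebpa.

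Same-numbered libraries deviated together with a correlation of 0.142 in the first experiment and -0.065 in the second, over common sites; the labels give no pairing. The replicate block (differences within numbers, exact sign-flip test over 2 pairs, smallest p 0.5) left gained and lost sites and peak differences at 1, 2 and -0.5 in Trib1_LSKO and 1, 0 and 0.5 in AAV_Cebpa, and gave 10 higher and 2 lower ranks in Trib1_LSKO and 2 and 5 in AAV_Cebpa. The same sign within 2 pairs is easier to reach than groups without overlap, and no share over all common sites was taken for it.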

Other observations

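The groups given an empty vector, AAV_Null in wild-type mice and Trib1_WT in floxed mice, differed at some sites of the Hamp side. These differences enter no comparison of the design. The +46.3 kb site was at percentiles of 53.2 and 39.8 in AAV_Null and 85.2 and 72.3 in Trib1_WT, and the +1.8 kb site at 84.6 and 77.1 in AAV_Null and 49.6 and 58.9 in Trib1_WT. The +11.7 kb site was listed in both AAV_Null libraries and in neither Trib1_WT library. At other sites these groups overlapped. The +7.7 kb site had 92.9 and 90.7 in AAV_Null, against 93.1 and 91.4 in Trib1_WT. The +33.2 kb site had 80.6 and 85.1 in AAV_Null, against 82.3 and 90.1 in Trib1_WT. Percentiles depend on the length of a list, and the share of all sites that separate these groups was not taken. Genotype, vector dose and experiment differ together between these groups and cannot be told apart.

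At the +33.2 kb site, the signal relative to the +7.7 kb site was lower in replicate 1 than in replicate 2 of every group, at 58.7% and 81.4% in Trib1_LSKO, 62.3% and 94.8% in Trib1_WT, 50.9% and 87.6% in AAV_Cebpa, and 56.6% and 77.9% in AAV_Null. The labels do not say that the replicate numbers mark a shared day or batch.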
